A study of Rattus norvegicus with 20 samples.

Results

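The 9 microglial marker genes P2ry12, Cx3cr1, Csf1r, Trem2, Tyrobp, Aif1, Tmem119, Laptm5 and Cd68 were taken by symbol from the 32402 genes of the tables, and each matched a single Ensembl gene. In the order just given these were ENSRNOG00000013902, ENSRNOG00000018509, ENSRNOG00000018414, ENSRNOG00000013578, ENSRNOG00000020845, ENSRNOG00000000853, ENSRNOG00000000700, ENSRNOG00000011054 and ENSRNOG00000037563. All 9 passed the filter of a mean of at least 10 normalized counts in every comparison. The study asked how age alters the transcriptome of the rat supraoptic nucleus (SON), a hypothalamic nucleus of vasopressin and oxytocin neurones, and its response to dehydration. RNA-seq was done on SON punches of 20 male Wistar Han rats in 4 groups of 5. Adult rats were 3 months old and aged rats 18 months old. Euhydrated (EH) rats drank freely and dehydrated (DH) rats had no water, for 2 days by the labels and for longer by the methods of the study. The rats carried no transgene, and a punch holds every cell of the tissue. A change in the number of microglia and a change in RNA per microglial cell, up or down, therefore cannot be told apart.

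Microglia are the resident macrophages of the brain parenchyma. They depend for survival on the receptor CSF1R, survey the tissue with processes that carry P2RY12 and CX3CR1, and clear debris through receptors such as TREM2, which signals through the adapter TYROBP. AIF1 (IBA1) bundles actin, TMEM119 is a surface protein used to tell microglia from blood-derived macrophages, and LAPTM5 and CD68 are membrane proteins of lysosomes and late endosomes.

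The myeloid factor PU.1 is the textbook regulator of genes of this kind, so the letters around the start of each gene are shown first. RefSeq promoter sequences on the GRCr8 assembly, each with 250 bases before the start and 50 from it on, were at hand for 5 of the 9 genes, and positions are counted from the first transcribed base, which is 0. For each, 100 bases before the start are printed 5′ to 3′ on the gene's strand, with matches to the searched motifs in capitals. Each stretch runs up to the start except that of Csf1r, which was set further upstream, where its PU.1 match lies.
Cx3cr1, chr8:128677067-128677166, minus strand, bases -100 to -1: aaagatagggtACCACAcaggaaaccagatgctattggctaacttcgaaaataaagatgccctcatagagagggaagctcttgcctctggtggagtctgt
Csf1r, chr18:56834129-56834228, plus strand, bases -250 to -151: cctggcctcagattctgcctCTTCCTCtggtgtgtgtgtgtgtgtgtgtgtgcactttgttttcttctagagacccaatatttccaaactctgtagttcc
Trem2, chr9:20151780-20151879, minus strand, bases -100 to -1: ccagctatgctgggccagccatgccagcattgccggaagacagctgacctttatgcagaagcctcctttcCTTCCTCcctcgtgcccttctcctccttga
Laptm5, chr5:148371780-148371879, plus strand, bases -100 to -1: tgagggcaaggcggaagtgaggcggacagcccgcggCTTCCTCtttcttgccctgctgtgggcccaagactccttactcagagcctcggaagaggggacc
Cd68, chr10:54882442-54882541, minus strand, bases -100 to -1: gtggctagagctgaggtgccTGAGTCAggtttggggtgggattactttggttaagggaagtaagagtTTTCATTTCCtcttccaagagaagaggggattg
Trem2, Laptm5 and Csf1r held the PU.1 core GAGGAAG before the start, each on the reverse strand (CTTCCTC), at bases -30, -64 and -230. In Cd68 this core lay just past the start, at base 4, and the capitals mark a PU.1 and IRF composite (GGAA, any 2 bases, GAAA, on the reverse strand) at base -33 and an AP-1 motif, TGANTCA, at base -80. This AP-1 motif was also found outside the stretches in Cd68 at base -205 and across the start of Trem2 from base -3. In Cx3cr1 this core was not found in the window, and the capitals mark a RUNX motif, TGTGGT, on the reverse strand at base -89, with a second outside the stretch at base -153. The CEBP motif TTGCNNAA was found in Trem2 past the start, TATAAA in Laptm5 at base -233, and the E-box CACGTG in none of the 5. On both strands GAGGAAG was present in 12.4% of the 33469 promoters of the table, the composite in 2.94%, TGANTCA in 7.33%, TGTGGT in 17.3%, TTGCNNAA in 10.6%, CACGTG in 6.42% and TATAAA in 14.2%. The motifs overlap nowhere in the printed stretches. These matches describe letters and not binding.

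Values are normalized counts, that is reads per gene divided by the size factor of the library. Whole reads could be recovered from all 3 tables, and they summed to 24268398 to 30348118 per rat over genes. Pearson's r between libraries across genes was 0.982 to 0.992, and no pair was a copy of another. The punches held the SON neurone markers Avp (115638 to 319407 normalized counts) and Oxt (72410 to 144991) in every rat. Blood was present, with the haemoglobin genes Hba1 at 9110 to 33147 and Hbb at 3377 to 12927. Among white cell markers the T cell gene Cd3d was at 1.97 to 9.29 and the neutrophil gene Mpo at 0 to 7.85, and Elane was at 0 in 19 rats. Others lay higher, with Cd2 at 3.94 to 28.6, S100a9 at 5.28 to 41.4, Plac8 at 23.5 to 87.7 and Lcn2 at 35.3 to 138. Lyz2 was at 2308 to 3302 and Cd4 at 228 to 574, genes that microglia and macrophages also express. The reads behind the 9 genes ran from 104 to 206 per rat for Cd68, the fewest, and from 2441 to 3827 for Csf1r, the most. Counting error alone was 0.120 on the log2 scale for Cd68 and 0.0259 for Csf1r, and the spread between rats of a group was 1.82 (Tyrobp) to 4.65 (Tmem119) times the counting error.

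When the reads of all 20 libraries were scaled together, which was chosen after seeing the data, the geometric mean of the 9 genes was 405 ± 17.7 normalized counts in adult EH, 363 ± 14.1 in adult DH, 501 ± 46.7 in aged EH and 480 ± 50.3 in aged DH (SD, n = 5). The 5 aged EH rats lay at 454 to 570, all above the adult EH rats at 383 to 432. The adult DH rats lay at 342 to 374, below every adult EH rat, whereas the aged DH rats at 425 to 549 overlapped the aged EH rats. This mean is a description and was not tested.

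**Figure D1:**
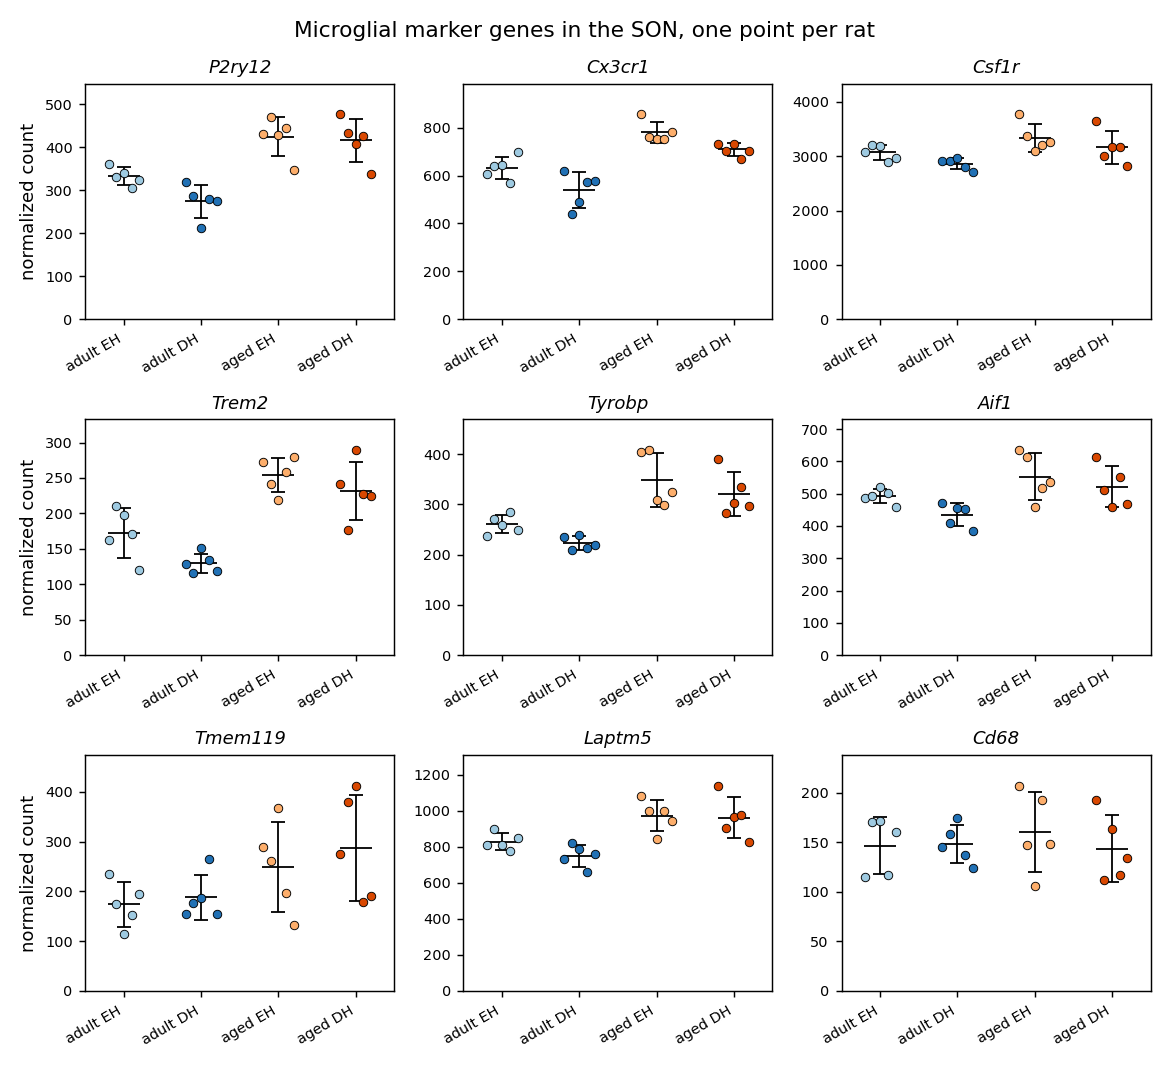
Normalized counts of the 9 microglial marker genes in each rat, with the reads of all 20 libraries scaled together. Points are rats, bars the group mean and SD (n = 5), and each panel has its own linear axis from 0. Trem2, Cx3cr1 and Tyrobp lay higher in the aged rats of each state without overlap, and Cd68 and Tmem119 overlapped in all 4 groups.

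With age, in EH rats, 5 of the 9 microglial genes rose, and the other 4 did not pass the test. Those that rose were Trem2, Tyrobp, P2ry12, Cx3cr1 and Laptm5, by 1.17-fold to 1.49-fold. Over all 15369 genes tested, 5.99% were called, 2.69% with higher values in aged EH. The LFC (log2 fold change, aged EH over adult EH, on log2 of the normalized count plus 1) was positive in 9 of 9 genes with a median of 0.30, against a median of 0.00033 over all genes tested. In 3 of the 9 the groups did not overlap, with aged EH higher, as in 2.95% of all genes tested. limma, edgeR and DESeq2 each called 5, where edgeR called 2.68% and DESeq2 3.90% of all genes higher. In the sentences that follow, rats of a group are listed in the order of their label numbers.

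Among the surface receptors, P2ry12, which senses released nucleotides, was at 439, 479, 438, 455 and 356 normalized counts in the aged EH rats and at 370, 339, 348, 313 and 330 in the adult EH rats. Aged EH rat 6 lay within the adult range and the other 4 above it. The LFC was 0.35 (SE 0.0801, limma adjusted p = 0.0224). Cx3cr1, the fractalkine receptor, was at 874, 775, 771, 770 and 802 in aged EH and at 623, 655, 661, 584 and 714 in adult EH. The groups did not overlap, and the LFC was 0.30 (SE 0.0590, limma adjusted p = 0.00898). Csf1r, the receptor for CSF1 and IL-34, was at 3848, 3430, 3164, 3278 and 3329 in aged EH against 3152, 3286, 3263, 2959 and 3040 in adult EH. Of the aged rats 3 lay above all adult rats, and the LFC of 0.12 (95% confidence interval 0.01 to 0.22) did not pass (limma adjusted p = 0.201).

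Trem2, the lipid-sensing receptor of phagocytic microglia, had the largest LFC of the 9. It was at 278, 246, 224, 264 and 286 in aged EH and at 166, 215, 202, 175 and 123 in adult EH, so that every aged rat exceeded every adult rat. The LFC was 0.58 (SE 0.133, limma adjusted p = 0.0215), or 1.49-fold. Its adapter Tyrobp was at 412, 416, 315, 305 and 332 in aged EH against 244, 277, 265, 291 and 256 in adult EH. Aged EH rats 1 and 2 were the highest and the groups did not overlap, with an LFC of 0.41 (SE 0.0968, limma adjusted p = 0.0259).

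Aif1, the gene of the immunostaining marker IBA1, was at 648, 627, 470, 528 and 550 in aged EH and at 497, 503, 533, 515 and 470 in adult EH. The adult rats sat within the spread of the aged rats, and the LFC of 0.16 (95% confidence interval -0.02 to 0.33) did not pass (limma adjusted p = 0.304). Tmem119 was at 295, 265, 375, 200 and 135 in aged EH against 241, 178, 117, 156 and 199 in adult EH. It varied most between rats of a group, with a within-group SD of 0.468 on the log2 scale over the 4 groups, and its LFC of 0.47 had a 95% confidence interval of -0.05 to 0.98 (limma adjusted p = 0.308).

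Of the lysosomal genes, Laptm5 was at 1104, 1017, 865, 1021 and 966 in aged EH and at 830, 920, 829, 797 and 866 in adult EH. Aged EH rat 4 lay within the adult range, and the LFC was 0.23 (SE 0.0621, limma adjusted p = 0.0473). Cd68 was at 211, 150, 109, 196 and 152 in aged EH against 117, 174, 176, 119 and 164 in adult EH. The groups overlapped widely and the LFC of 0.11 had a 95% confidence interval of -0.27 to 0.49 (limma adjusted p = 0.803).

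Aged EH rat 1 held the highest value of its group for Cx3cr1, Csf1r, Aif1, Laptm5 and Cd68. Leaving out rats 1 at a time, the number of the 9 genes called in ageing was 2 to 5, and it was under 5 for 8 of the 10 rats. It was 2 without adult EH rat 6 or aged EH rat 2, and 3 without adult EH rats 1 or 5 or aged EH rats 1 or 5. Cx3cr1 and Trem2 were called without any single rat (limma adjusted p 0.0067 to 0.0251 and 0.0153 to 0.0497), though Trem2 was lost when variances were moderated without a trend (adjusted p = 0.0604). P2ry12 was lost without adult EH rats 5 or 6 or aged EH rats 2 or 5, and Tyrobp without adult EH rats 1 or 6 or aged EH rats 1 or 2 (highest limma adjusted p 0.0590 and 0.0621). Laptm5 was called only with all rats, without adult EH rat 2 and without aged EH rat 4 (highest limma adjusted p 0.112).

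**Figure D2:**
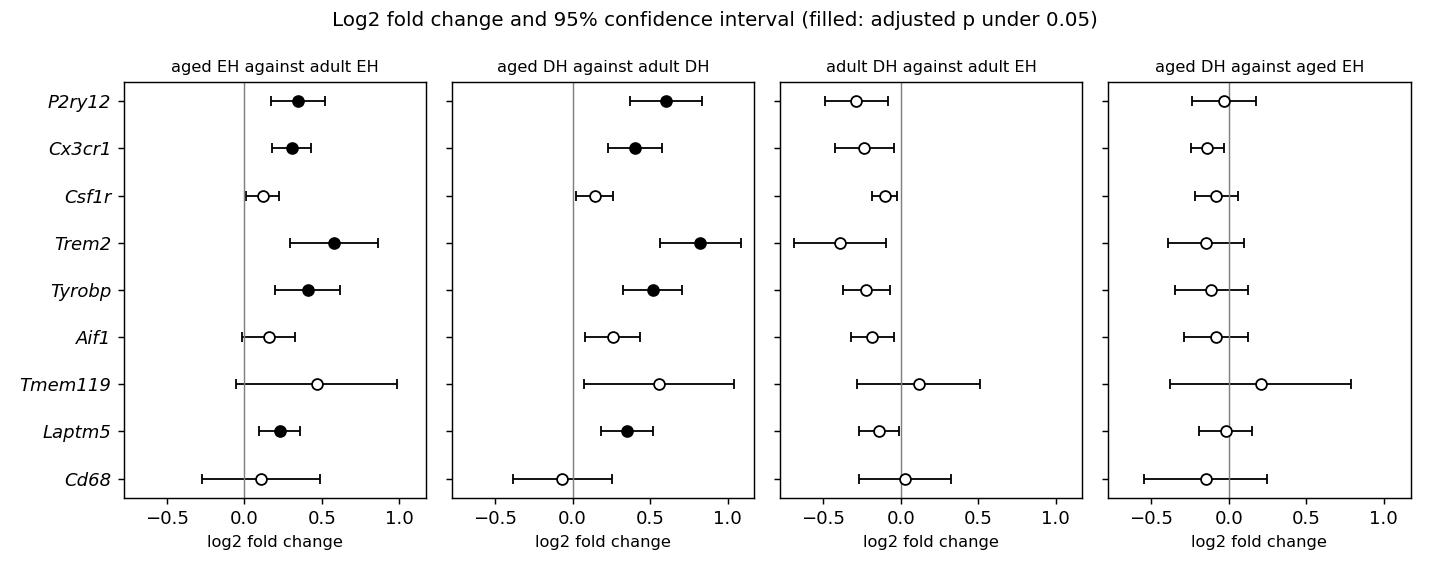
LFC and 95% confidence interval of each microglial gene in 4 comparisons, on the log2 scale, with filled points at a limma adjusted p under 0.05. The LFCs with age lay to the right of 0 for all genes but Cd68 in DH rats. No point is filled in either comparison of DH with EH.

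The same 2 ages were compared in DH rats, a comparison that no single table holds and that was added after the data were seen. On the scale of all 20 libraries, 5 of the 9 genes were again called higher in aged rats, and they were P2ry12, Cx3cr1, Trem2, Tyrobp and Laptm5, as in EH. Over all 15306 genes tested 4.95% were called higher in aged DH. Trem2 ran from 176 to 289 in aged DH and from 116 to 151 in adult DH, with an LFC of 0.82 (SE 0.121, limma adjusted p = 0.00138), or 1.77-fold. P2ry12 ran from 336 to 476 against 213 to 318, with an LFC of 0.60 (SE 0.108, limma adjusted p = 0.00412). The 2 groups did not overlap in these genes. Nor did they overlap in Tyrobp (LFC 0.52, limma adjusted p = 0.00335), Cx3cr1 (0.40, adjusted p = 0.00847) and Laptm5 (0.35, adjusted p = 0.0136), which makes 5 of 9 against 4.35% of all genes tested. Aif1 (LFC 0.26, limma adjusted p = 0.0634), Csf1r (0.14, adjusted p = 0.121), Tmem119 (0.56, adjusted p = 0.128) and Cd68 (-0.07, adjusted p = 0.820) did not pass. In the same rats 5 of 5 meningeal markers (median LFC -0.60), 3 of 8 astrocyte, 2 of 7 endothelial and mural and 2 of 8 oligodendrocyte lineage markers were called lower with age, as were 5.81% of all genes tested. The part of these markers in the values of the 9 genes was not tested.

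Averaged over both states in the 20 rats, which reuses the same libraries and is no second sample, age raised 7 of the 9 genes, where 9.77% of 15324 genes were called higher in aged rats. Csf1r (LFC 0.13, SE 0.0397, limma adjusted p = 0.0229) and Aif1 (0.21, SE 0.0607, limma adjusted p = 0.0181) joined the 5. Their changes were the smallest of the 7, 1.09-fold and 1.16-fold, and Csf1r was not called when libraries were scaled to the same total (limma adjusted p = 0.0681). Tmem119 had an LFC of 0.51 and a limma adjusted p of 0.0514, and was called by edgeR and DESeq2, which called 9.36% and 10.2% of all genes higher. For Cd68 the 95% confidence interval of the LFC was -0.23 to 0.28. Thus the lysosomal genes differed in their result, with Laptm5 called (LFC 0.29, limma adjusted p = 5.13e-04) and Cd68 not. The difference between these LFCs was not tested.

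In adult rats none of the 9 genes passed the test for DH. limma and edgeR called 0 and DESeq2 called 2, P2ry12 and Trem2, as lower. Over all 15280 genes tested, limma called 7.67% higher and 4.99% lower in adult DH, edgeR called 4.92% lower and DESeq2 6.60% lower. At an unadjusted p under 0.05, 7 of the 9 were lower in adult DH, as were 12.8% of all genes tested. The median LFC of the 9 was -0.18, against -0.0073 over all genes tested, and limma adjusted p-values of those 7 ran from 0.0610 to 0.146.

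P2ry12 was at 312, 280, 209, 275 and 270 in the adult DH rats and at 355, 326, 333, 300 and 317 in the adult EH rats, and 4 of 5 DH rats lay below every EH rat. The LFC was -0.29 (95% confidence interval -0.49 to -0.08, limma adjusted p = 0.0654). Cx3cr1 was at 609, 430, 481, 562 and 570 in adult DH against 598, 629, 633, 560 and 685 in adult EH. Rats 2 and 3 were the lowest, and the LFC was -0.24 (limma adjusted p = 0.102). Csf1r was at 2857, 2852, 2909, 2740 and 2669 against 3025, 3158, 3125, 2839 and 2916. The shift was small, with 2 DH rats below every EH rat and an LFC of -0.10 (limma adjusted p = 0.0903).

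Trem2 was at 126, 114, 148, 131 and 116 in adult DH and at 160, 207, 194, 168 and 118 in adult EH. The low adult EH rat 6 made the groups overlap, and the LFC was -0.39 (95% confidence interval -0.69 to -0.09, limma adjusted p = 0.0831). Without that rat Trem2 was called (LFC -0.51, limma adjusted p = 0.0105), and without adult DH rat 1 P2ry12 was called (LFC -0.34, limma adjusted p = 0.0336). Tyrobp was at 231, 206, 234, 209 and 215 in adult DH against 234, 266, 254, 280 and 245 in adult EH. All but DH rat 3 lay below every EH rat, with an LFC of -0.22 (limma adjusted p = 0.0610), the smallest adjusted p of the 9.

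Aif1 was at 461, 402, 446, 445 and 378 in adult DH and at 477, 484, 510, 494 and 451 in adult EH, with 4 of 5 DH rats below every EH rat and an LFC of -0.18 (limma adjusted p = 0.0775). Laptm5 ran from 648 to 803 in adult DH and from 765 to 884 in adult EH (LFC -0.14, limma adjusted p = 0.146). Tmem119 (LFC 0.12, limma adjusted p = 0.740) and Cd68 (LFC 0.03, limma adjusted p = 0.928) lay close to 0, with 95% confidence intervals of -0.28 to 0.51 and -0.27 to 0.33. When libraries were scaled to the same total, 4 of the 9 were called lower in adult DH, Csf1r, P2ry12, Aif1 and Tyrobp (limma adjusted p 0.0335 to 0.0462).

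In aged rats none of the 9 was called by limma, edgeR or DESeq2. limma called 4.05% of 15346 genes higher and 3.25% lower in aged DH. The share called lower was 3.40% by edgeR and 4.77% by DESeq2. At an unadjusted p under 0.05 there was 1 of the 9, Cx3cr1, which was lower, as were 10.1% of all genes tested. Cx3cr1 was at 747, 717, 748, 683 and 719 in aged DH and at 872, 774, 771, 769 and 797 in aged EH. Every DH rat lay below every EH rat, as in 2.93% of all genes tested, but the LFC of -0.14 (SE 0.0498) did not pass (limma adjusted p = 0.113). The LFCs of the other 8 ran from -0.15 (Cd68) to 0.21 (Tmem119), and their limma adjusted p-values from 0.518 to 0.922.

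The LFC of DH in aged rats less that in adult rats was above 0 for 8 of the 9 genes, with a median of 0.10, and none passed by limma, edgeR or DESeq2. Of all 15326 genes, limma and edgeR called none and DESeq2 called 23 (0.174%) higher and 32 (0.242%) lower. The genes with an unadjusted p under 0.05 numbered 1522 (9.93%), and none of the 9 was among them. The largest difference was that of P2ry12 at 0.25 (95% confidence interval -0.04 to 0.55, limma adjusted p = 0.572), followed by Trem2 at 0.24 (-0.15 to 0.64, adjusted p = 0.719). The intervals leave room for no difference and for one as large as the adult change itself. Averaged over both ages, a contrast added after the data were seen, DH lowered Cx3cr1 (LFC -0.19, SE 0.0525, limma adjusted p = 0.0130) and Trem2 (-0.27, SE 0.0943, adjusted p = 0.0454), where 9.83% of genes were called lower. Cx3cr1 was called without any single rat, whereas Trem2 was lost without any 1 of 16 of the 20 rats (highest limma adjusted p 0.0892), the exceptions being adult DH rat 3, adult EH rat 6, aged DH rat 3 and aged EH rat 4.

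Of 5 ligands that act on microglia, CSF1 and IL-34 bind CSF1R, CX3CL1 (fractalkine) is the neuronal ligand of CX3CR1, and the TGF-beta ligands, which bind none of the 9 proteins, maintain microglial identity. Microglia can make TGF-beta themselves. Within groups Tgfb1 had an r of 0.591 with the mean of the 9 genes across 20 rats, a description, and the cells that express it here were not tested. In EH rats none of the 5 was called with age by limma, edgeR or DESeq2. An unadjusted p under 0.05 was held by 1 of them, as by 20.3% of all genes tested. The Il34 level was 752 ± 81.9 in the aged rats against 884 ± 75.9 in the adult rats (SD, n = 5, LFC -0.24, limma adjusted p = 0.105, and called at -0.29 with adjusted p = 0.0416 without adult EH rat 6), and the LFCs of Csf1, Cx3cl1, Tgfb1 and Tgfb2 lay between -0.03 and 0.05. In DH rats Il34 was lower with age, at 701 ± 72.3 against 857 ± 34.9 (SD, n = 5, LFC -0.30, limma adjusted p = 0.0139), while Csf1 was not called (LFC 0.05, adjusted p = 0.477). Averaged over both states Il34 had an LFC of -0.26 (SE 0.0550, limma adjusted p = 0.00159), opposite in sign to its receptor gene Csf1r.

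DH in adult rats raised Tgfb1 from 368 ± 20.1 to 438 ± 32.0 (SD, n = 5, LFC 0.25, limma adjusted p = 0.0194). DH in aged rats lowered Cx3cl1 from 5580 ± 481 to 4752 ± 331 (LFC -0.23, limma adjusted p = 0.0345) and Tgfb2 from 1085 ± 26.1 to 975 ± 40.0 (SD, n = 5, LFC -0.15, limma adjusted p = 0.0384). In the other age the LFCs were 0.18 for Tgfb1, -0.15 for Cx3cl1 and -0.08 for Tgfb2, none called (limma adjusted p 0.283, 0.153 and 0.276). For none of the 3 did the LFC of DH differ between ages by test (limma adjusted p 0.717 to 0.898). Tgfb1 in adult rats and Il34 with age in DH rats were called without any single rat, but Tgfb1 was not called in 1 fit over all 20 rats (limma adjusted p = 0.0503). Cx3cl1 in aged rats was lost without aged DH rats 1, 2, 3 or 5 or aged EH rats 1, 4 or 5 (highest limma adjusted p 0.0942), and Tgfb2 without those rats or aged EH rat 6 (highest 0.0996). Csf1 and Il34 were not called in DH at either age (limma adjusted p 0.272 to 0.955).

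Of 13 tested adapters and kinases that act downstream of TREM2, TYROBP and CSF1R, none was called with age in EH rats. A positive LFC was found in 11 (median 0.16). An unadjusted p under 0.05 was held by 2 of the 13, as by 20.3% of all genes tested. edgeR and DESeq2 also called 0. Averaged over both states all 13 had a positive LFC and 2 rose, Nckap1l (LFC 0.23, limma adjusted p = 0.00599), a haematopoietic actin regulator, and Vav1 (0.31, adjusted p = 0.0404), a signalling protein of blood cells. In that comparison 9.77% of all genes tested were called higher. In neither comparison of DH with EH was any of the 13 called by limma, edgeR or DESeq2. At an unadjusted p under 0.05 there were 2 in adult DH and 0 in aged DH. The shares of all genes tested were 26.9% and 21.4%.

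Among 31 tested genes of a wider list of microglial identity and surface genes, 11 rose and 1 fell with age in EH rats, with a median LFC of 0.26. Of all genes tested, 2.69% were called higher and 3.30% lower. Among those with the smallest adjusted p were Ctss, the lysosomal protease cathepsin S (LFC 0.49, limma adjusted p = 1.58e-04), the IgG receptors Fcgr2b (0.86, adjusted p = 0.00211) and Fcgr3a (0.73, adjusted p = 0.00260), the phagocytic receptor kinase Mertk (0.36, adjusted p = 0.00401) and the common Fc receptor gamma chain Fcer1g (0.37, adjusted p = 0.00461). Olfml3, a secreted protein, was the gene that fell (LFC -0.49, limma adjusted p = 0.0175). Olfml3 was named after its values were seen. The complement genes C1qa (LFC 0.26, limma adjusted p = 0.0744), C1qb (0.14, adjusted p = 0.263) and C1qc (0.11, adjusted p = 0.550) were not called. In DH rats 10 of the 31 were higher and 1 lower with age, among them Ctss (LFC 0.47, limma adjusted p = 0.00374), Itgb2 (0.61, adjusted p = 0.00566), the fructose transporter gene Slc2a5 (0.53, adjusted p = 0.00901), Fcer1g (0.36, adjusted p = 0.0112) and Sall1 (0.25, adjusted p = 0.0128), a transcription factor gene of microglial identity. C1qa was among the 10 (LFC 0.32, limma adjusted p = 0.0143), and the gene that was lower was again Olfml3 (-0.49, adjusted p = 0.0158). With age in DH rats, 4.95% of all genes tested were called higher and 5.81% lower.

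Of 19 tested reactive or phagocytic genes, 4 rose with age in EH rats and 1 fell, with a median LFC of 0.11. The shares over all genes tested were 2.69% higher and 3.30% lower. Ctsd, a lysosomal protease, rose from 13595 ± 485 to 16458 ± 687 (SD, n = 5, limma adjusted p = 8.29e-04). Gpnmb, a lysosomal glycoprotein, rose from a mean of 296 to one of 522 (LFC 0.83, SE 0.153, limma adjusted p = 0.00724), and Lgals3, galectin 3, from 167 ± 19.4 to 277 ± 71.1 (LFC 0.70, limma adjusted p = 0.0129). Ctsb, another lysosomal protease, had an LFC of 0.11 (limma adjusted p = 0.0366), and the tetraspanin gene Cd9 fell (LFC -0.29, adjusted p = 0.0338). Cells other than microglia also express Ctsd, Ctsb, Cd9 and Cd63. The count of 5 called reactive genes with age in EH rats became 3 without adult EH rats 1, 5 or 6 or aged EH rats 4 or 5, while that of the identity list stayed between 8 and 12 whichever rat was left out. In DH rats 4 genes of this list were higher with age and 2 lower, and they were Gpnmb (LFC 0.81, limma adjusted p = 9.7e-04), Ctsd (0.21, adjusted p = 0.00489), the secreted phosphoprotein gene Spp1 (0.71, adjusted p = 0.0109), Ctsb (0.11, adjusted p = 0.0387), the lipoprotein lipase gene Lpl (-0.59, adjusted p = 0.0052) and the receptor kinase gene Axl (-0.15, adjusted p = 0.0376). The shares over all genes tested were 4.95% higher and 5.81% lower.

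In adult DH, the identity list of 31 tested genes held 3 that fell and 1 that rose, with a median LFC of -0.08. Of all genes tested, 4.99% were called lower and 7.67% higher. The integrin chain Itgb2 fell from 310 ± 16.5 to 227 ± 47.5 (SD, n = 5, LFC -0.47, limma adjusted p = 0.0147), the transcription factor gene Irf8 from 349 ± 23.4 to 267 ± 32.0 (LFC -0.39, limma adjusted p = 0.00902) and the checkpoint gene Vsir from 966 ± 54.4 to 851 ± 45.8 (LFC -0.18, limma adjusted p = 0.0291). Mertk, which also rose with age, rose from 856 ± 49.8 to 1033 ± 49.5 (LFC 0.27, limma adjusted p = 0.00257). In aged DH none of the 31 was called by limma, edgeR or DESeq2, and 3 had an unadjusted p under 0.05, as had 21.4% of all genes tested. Without aged DH rat 1 or aged EH rat 4 there was 1 call, and without aged EH rat 2 there were 2. Of the reactive list, the tetraspanin gene Cd63 rose in DH at both ages, with an LFC of 0.44 in adult rats (limma adjusted p = 2.08e-06) and 0.45 in aged rats (adjusted p = 2.68e-04). The shares of all genes called higher were 7.67% in adult DH and 4.05% in aged DH. Ctsd rose as well (LFC 0.22 and 0.15, limma adjusted p = 4.95e-04 and 0.0464), but in aged rats edgeR did not call Ctsd (adjusted p = 0.0506), and 1 of these 2 genes was lost without any single rat other than aged DH rats 2 or 6 or aged EH rat 2.

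**Figure D3:**
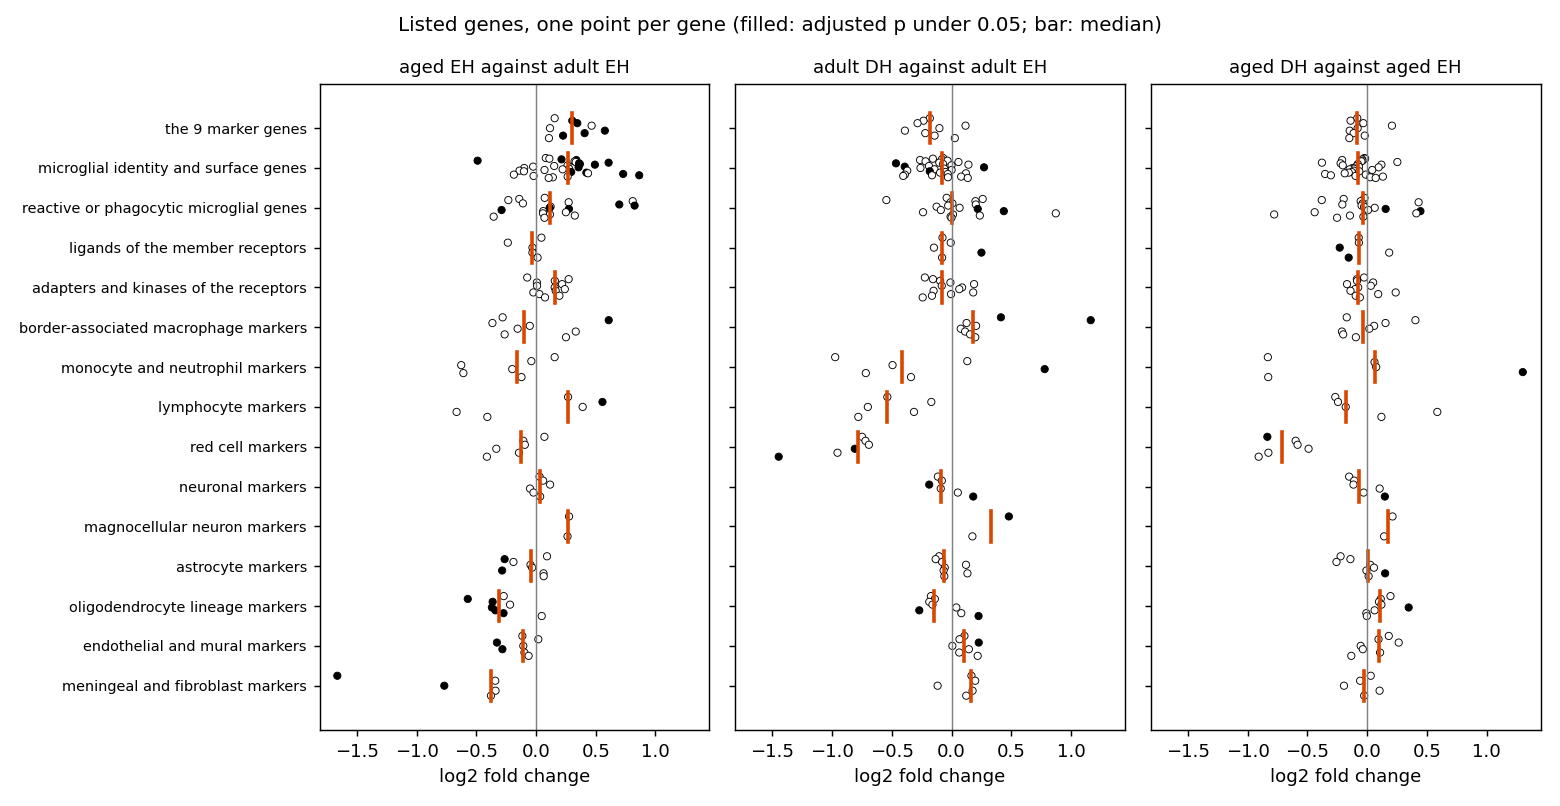
LFC of each listed gene in 3 comparisons, on the log2 scale, with filled points at a limma adjusted p under 0.05 and bars at the list's median. With age the bars of the 9 marker genes and of the identity list lie right of 0, at 0.30 and 0.26, and those of the oligodendrocyte and meningeal lists left of it, at -0.31 and -0.38. In both comparisons of DH the red cell markers lie left of 0.

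Markers of other cells that share these genes are described next. The 8 tested markers of border-associated macrophages, which line vessels and meninges and express several of the 9 genes, did not move as a set with age in EH rats, with 3 higher and 5 lower (median LFC -0.10), and only the haemoglobin scavenger receptor gene Cd163 was called (LFC 0.61, limma adjusted p = 0.0423). Of all genes tested, 2.69% were called higher and 3.30% lower. Leaving out rats 1 at a time gave 0 to 3 called markers, with 1 without adult EH rat 2 or aged EH rat 4, 3 without aged EH rat 1 and 0 without any of the other 7 rats. The summed level of this list was 1352 to 2061 normalized counts in aged EH and 1605 to 2090 in adult EH. In DH rats the mannose receptor gene Mrc1 (LFC -0.86, limma adjusted p = 0.0123) and the scavenger receptor gene Stab1 (-0.62, adjusted p = 0.0352) were lower with age (1 of these calls was lost without any 1 of 8 of the 10 rats, the exceptions being adult DH rat 5 and aged DH rat 1), while the 5 microglial genes named above were higher. With age in DH rats, 5.81% of all genes tested were called lower. In adult DH all 8 had a positive LFC and 2 rose, where 7.67% of all genes tested were called higher. Cd163 rose from 121 ± 23.5 to 273 ± 54.3 (SD, n = 5, LFC 1.16, limma adjusted p = 2.24e-04) and Mrc1 from 580 ± 63.4 to 772 ± 86.0 (LFC 0.41, limma adjusted p = 0.00674). These rises were opposite in sign to the LFCs of 7 of the 9 genes in the same rats. In aged DH none of the 8 was called by limma, edgeR or DESeq2. An unadjusted p under 0.05 was held by 1 of them, as by 21.4% of all genes tested. The part of border-associated macrophages in the values of the 9 genes was not tested.

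Of 5 tested lymphocyte markers, 3 were higher and 2 lower with age in EH rats (median LFC 0.27), and Cd4 was called (LFC 0.56, limma adjusted p = 0.0386). With age in DH rats all 5 were higher, as the 5 called microglial genes were (median LFC 0.50, 1 called higher). Averaged over both states 4 of the 5 were higher (median LFC 0.41, 1 called higher). In adult DH all 5 lymphocyte markers were lower (median LFC -0.54), the sign of 7 of the 9 genes in the same rats. None of the 5 was called there, where 4.99% of all genes tested were called lower. Their part in the values of the 9 genes was not tested. Rat microglia and macrophages also express Cd4, and the T cell gene Cd3e was at 1.14 to 29.0 over the 20 rats. Of 6 tested monocyte and neutrophil markers none was called with age in EH rats by limma, edgeR or DESeq2. An unadjusted p under 0.05 was held by 1 of them, as by 20.3% of all genes tested. In adult DH 4 of the 6 were lower and 2 higher (median LFC -0.42). Lcn2, an iron-binding secreted protein of neutrophils and reactive glia, rose in DH from 53.7 ± 16.3 to 90.3 ± 12.3 in adult rats and from 47.4 ± 9.11 to 118 ± 15.3 in aged rats (SD, n = 5, limma adjusted p = 0.0177 and 2.68e-04). All 6 red cell markers had a negative LFC in DH at both ages (median -0.78 in adult and -0.71 in aged rats), and their summed level was 15663 to 38053 in adult DH against 26922 to 53784 in adult EH. In EH rats 3.30% of all genes tested were called lower with age. So were 5 of 8 oligodendrocyte lineage markers and 2 of 8 astrocyte markers, among the latter Gja1 (LFC -0.28, limma adjusted p = 0.00298). Of the endothelial and mural markers 2 of 7 fell, and of the meningeal markers 2 of 5. The part of these shifts in the values of the 9 genes was not tested.

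Within groups the 9 genes did not rise and fall as 1 block. After the group means were removed, Pearson's r across 20 rats between pairs of the 9 had a median of 0.262 over 36 pairs, from -0.215 (P2ry12 and Trem2) to 0.818 (Csf1r and Laptm5). Csf1r, Laptm5, Aif1, Tyrobp and Cd68 made up the 7 pairs with r above 0.5, for example Aif1 and Tyrobp at 0.799. The r of each gene with the mean of the other 8 was highest for Csf1r, at 0.845, and lowest for Tmem119, at -0.0608, with Trem2 at 0.186 and Cx3cr1 at 0.210. The points share libraries and depth, and these values are a description.

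**Figure D4:**
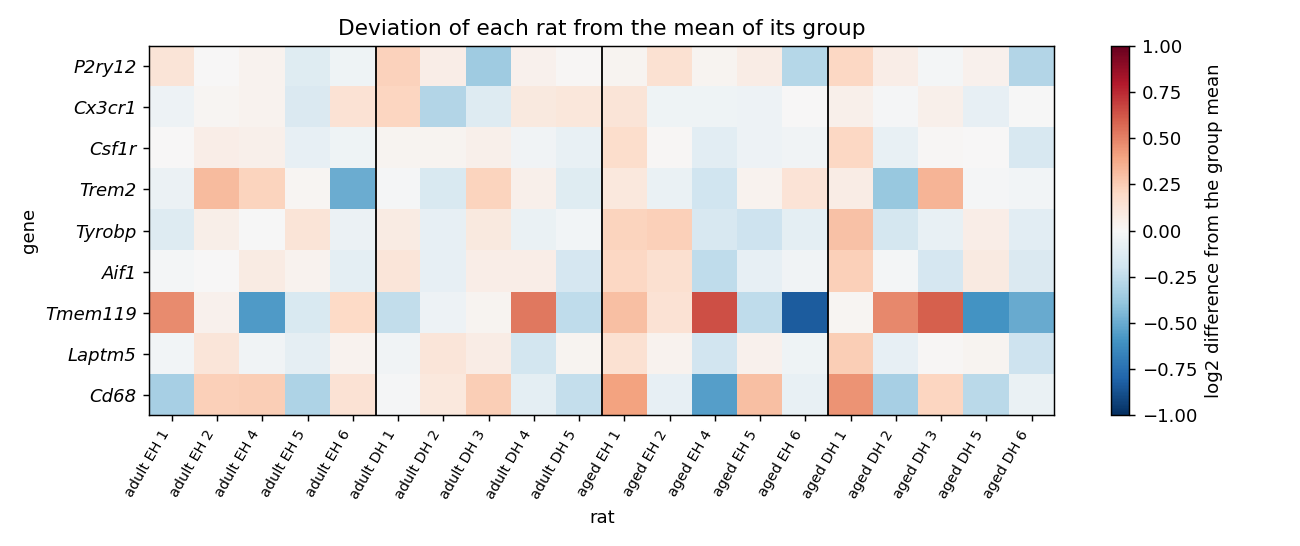
Log2 difference of each rat from the mean of its group for the 9 genes, with black lines between the groups (EH and DH, adult and aged). Aged EH rat 1 and aged DH rat 1 are above their group mean in most rows, and Tmem119 has the deepest colours of all rows.

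Of 13206 other genes with a mean of at least 50, those most like the mean of the 9 across the same 20 rats, group means removed, were Pik3cg (r = 0.878), Itga5 (0.827), Stab1, the border-associated macrophage marker (0.823), Bcan (0.817), Cyth4 (0.814), Ly75 (0.798), Elk3 (0.797), Als2cl (0.787), Ptpn6 (0.782) and Plxnb2 (0.772). Pik3cg encodes a leukocyte PI3-kinase subunit, Ptpn6 a phosphatase of blood cells and Itga5 the fibronectin receptor chain, whereas Bcan, brevican, is a matrix proteoglycan of brain tissue. The median r over the genes ranked was -0.0063 and the highest 5% began at 0.450. Of 30 ranked genes of the identity list, 16 were in that highest 5%, led by Fcer1g (r = 0.742), Irf8 (0.728) and Ctss (0.669). Among those of the list outside it were Mertk (0.0508) and Sall1 (0.0155). Of the reactive list, Msr1 (0.650), Cybb (0.629), Apoe (0.553) and Cd63 (0.523) were in the highest 5%. Lpl (0.195), Spp1 (0.111) and Gpnmb (-0.0131) were among those that were not. Markers of other cells were in the highest 5% as well, among them Pdgfrb (0.694), Mrc1 (0.636), Col1a1 (0.606), Gfap (0.507) and Aldh1l1 (0.489). Other markers of those cells were not, such as Cldn5 (0.153), Dcn (0.139) and Slc1a3 (0.0486).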

How the data were processed

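The data were poly(A) RNA-seq of SON punches from 20 rats, 5 in each of 4 groups. Per the methods of the study the authors aligned reads to the Rn6 assembly with STAR, obtained gene counts with featureCounts and normalized them in DESeq2. The deposited signal in each of the 3 tables of 10 libraries is therefore a normalized count, scaled within its table. The deposited tables also hold the authors' own comparisons (log2 fold changes and p-values), which were not used. All per-sample columns were used.

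Genes with a mean of at least 10 were tested on log2 of the value plus 1 with limma (3.58.1, R 4.3.3), two-sided, with variances moderated along a trend in the mean and Benjamini-Hochberg adjustment over all genes tested (threshold 0.05). This test was planned in place of the count model of the study because the deposited values are scaled. It was kept as the main test after whole reads were recovered. Each value was within 0.1 of a whole read after division by the library's step, and edgeR (4.0.16, quasi-likelihood) and DESeq2 (1.42.0) were run on those reads as alternatives. They cover 100% of values above 0. In 7 of 30 columns the step lies so near 1 that it cannot be told from rounding, but read totals were the same wherever a library stands in 2 tables. Comparisons across tables used the recovered reads of all 20 libraries with DESeq2 size factors. The scripts were tested on simulated data.

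The 9 genes and the lists were chosen with earlier results of these data known. Named were the 9 genes, the 5 ligands, up to 6 called genes of each list with the smallest adjusted p, and the 10 most alike genes. Some genes that this rule names are not reported here. Motifs were chosen after the promoters were seen. Groups and replicate numbers are those of the labels. The study lists RNA yield and integrity animal by animal. By its methods rats were housed in groups, and cages rather than single rats were allotted to EH or DH. The labels do not give the cage of a rat, and rats of a group may have shared one. The p-values therefore measure the spread between these libraries. Alternatives were other pseudocounts, filters, scalings, moderation and weights, a replicate block and each rat left out. Figures were drawn with matplotlib 3.10.9.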

Additional observations from a re-analysis of the deposited data

Results flagged for a closer look

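For the 9 microglial genes and the 5 ligands, 56 groups of 5 rats were examined for 1 rat far from the others, by Dixon's ratio of the gap to the whole range (limit 0.71 for 5 values), and 3 groups stood out, where chance gives about 1 in 20. Aged EH rat 1 had 872 normalized counts of Cx3cr1 against 769 to 797 in the other 4 aged EH rats (ratio 0.732). Adult EH rat 6 had 721 of Il34 against 863 to 900 (ratio 0.797), and adult DH rat 4 had 5610 of Cx3cl1 against 4678 to 4875 (ratio 0.789).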

How the results depend on the processing

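Across the alternatives, including each rat left out, 1583 of 1683 results of the 9 genes kept their direction and their side of the threshold, 42 lost the call, 31 gained it and 27 turned their direction. With the ligands 49 turned, 44 of them with a rat left out, none larger than 0.118 on the log2 scale or with a limma adjusted p under 0.792. Scaled to the same total, Tgfb2 had an LFC of -0.0170 in ageing and Cd68 of -0.00456 over both states. For the difference between the ages Csf1 was at -0.0133 with array weights. Of the 9 genes, moderation without a trend called 2 in ageing, 1 in adult DH and 1 in DH over both ages, and no filter called 1 in the last. In adult DH scaling to the same total called 4, DESeq2 called 2 and a fit over all 20 rats called 1. Of the reactive list in aged DH, 1 gene in place of 2 was called without a filter, scaled to the same total, centred on the median, without a trend, by edgeR and with the replicate block. The cause was not tested.

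With rats left out in turn, 2 to 5 of the 9 were called in ageing, 0 to 1 in adult DH and 1 to 3 in DH over both ages. LFCs ran in ageing from -0.0681 to 0.0217 for Cx3cl1, -0.0746 to 0.0324 for Tgfb1 and -0.0118 to 0.0342 for Tgfb2. In adult DH they ran from -0.0243 to 0.23 for Tmem119, -0.0555 to 0.0895 for Cd68 and -0.0649 to 0.0149 for Il34. In aged DH they ran from -0.10 to 0.0406 for P2ry12, -0.00125 to 0.37 for Tmem119 and -0.0830 to 0.0308 for Laptm5. The difference between the ages ran from -0.12 to 0.25 for Tmem119, -0.0302 to 0.0668 for Csf1r and -0.0450 to 0.0350 for Csf1. Cd68 ran from -0.18 to 0.0168 with age in DH and from -0.0337 to 0.0915 with age over both states.

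Over all genes, moderation without a trend called 516 in ageing (921 with it), 671 in aged DH (1119) and 1066 with age in DH (1647). The lowest count without 1 rat was 594 in ageing, 678 in aged DH and 1074 with age in DH. For the difference between the ages DESeq2 called 55, moderation without a trend 1, and leaving out a rat up to 5.

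Rats with the same label number correlated by -0.08 to 0.16 over 13 pairs, 3 of them above 0.1, so the numbers were not taken to pair rats. With a replicate block 3 of the 9 were called in ageing, where Trem2 (adjusted p = 0.0501) and Laptm5 (0.0541) were lost, and 1 in adult DH, the difference between the ages was -0.0629 for Csf1 and 0.00589 for Il34, Tgfb1 was lost in adult DH (adjusted p = 0.0887), and over all genes 987 were called in adult DH (1934 without it), 653 in aged DH and 1 for the difference. The spread between rats exceeded counting error for each of the 9.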
